A study of Mus musculus with 8 samples.

Results

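The genes described here are 10 transcripts of neutrophils and of the stefin A family, followed through all of their probes in mouse liver: S100a8, S100a9, Stfa1, Stfa2l1, Csta1, Ngp, Retnlg, Mmp8, Cxcr2 and Csf3r. They were selected on values of the same comparison of oxaliplatin with control livers, since earlier results of it showed low stefin transcripts on the oxaliplatin arrays. Their differences between the groups are therefore given as a description with no p-value, and the 1 count of calls among them is not read as a result. A probe was taken when the gene name or the transcript accession in the array files led to 1 of the 10 symbols. This gave 20 probes out of 149782 that are not controls. Of the 10 genes, 9 had a probe bright enough to enter the comparison of 13913 genes, and Cxcr2 had none.

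Liver RNA came from 8 male mice. The 4 oxaliplatin mice were injected intraperitoneally with this platinum drug once a week over 6 weeks. Oxaliplatin is given to mice in this way to model hepatic sinusoidal obstruction syndrome, which damages the capillaries of the liver. The 4 control mice were labelled normal. Strain, age, dose and the time of sampling after the last injection were not given in the sources used here, and the labels name no vehicle.

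Neutrophils carry preformed proteins in granules and in the cytosol, and the transcripts for many of these are made during maturation in the bone marrow. S100a8 and S100a9 are calcium-binding proteins that pair as calprotectin in the neutrophil cytosol. Stefins are small intracellular inhibitors of cysteine cathepsins, and the mouse carries a cluster of stefin A genes. In whole liver, fewer cells of a type and less RNA per cell cannot be told apart.

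The stefin probes are shown first, because their letters decide which gene a signal can be given to. The stefin A genes lie together on chromosome 16 in build mm9, where the files place the brightest Stfa1 probe at chr16:36285323-36285382 and the brightest Csta1 probe at chr16:36122294-36122353 on the minus strand. The lines below give 25 bases, 5′ to 3′, that end the Stfa1 probe, with the best matching 25 bases of 4 other probes. Capitals mark bases that differ from the Stfa1 probe at the same place.
Stfa1: gatgaagagctgacctacttctaag
Csta1: gatgaTgagctgacctacttctaag
Cstdc5: gatgaTgagctgacctacttctaag
Stfa2l1: AatgaTgagctgacctacttctaaA
Stfa3: ACtgaTgagctgacctCcAtGtaag

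The Csta1 and Cstdc5 probes each differed from Stfa1 at 1 of these 25 bases, A6T, counted from the first base shown. The overlap of the brightest Csta1 probe with this Cstdc5 probe went further, with 45 of 45 overlapping bases identical. The files list Cstdc5 as a second gene for the brightest Stfa1 probe and for the brightest Csta1 probe, and list Stfa2 beside Stfa2l1 for the dimmer Stfa2l1 probe. The brightest Stfa2l1 probe shares a run of 23 bases with the brightest Csta1 probe and with this Cstdc5 probe. Signals of the Stfa1, Csta1, Cstdc5 and Stfa2l1 probes are therefore uncertain as to gene. S100a8 is shown as a gene whose probes agreed closely. Its second probe lies at chr3:90473778-90473837, and the capitals mark the 25 bases that it shares with the brighter S100a8 probe.
S100a8: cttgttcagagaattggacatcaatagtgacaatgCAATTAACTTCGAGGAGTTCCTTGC

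Levels below are log2 processed signals relative to the 75th percentile of the same array, so 0 is that percentile and a step of 1 is a doubling. A probe counts as well above background on an array when the scanner software flagged it so. Between 27.2% and 40.9% of all probes carried that flag per array, and oxaliplatin replicate 2 had the lowest share. All oxaliplatin arrays sat on 1 slide and all control arrays on another, so group, slide and scan cannot be told apart. Oxaliplatin replicates 1 and 2 also carry another run name in the files than the other 6 arrays. Among those 6, the measured differences of Stfa1, Stfa2l1 and Csta1 were -4.05, -3.14 and -4.02, those of Retnlg, Mmp8 and Csf3r were -2.23, -2.34 and -0.61, and those of the other 3 measured genes stand with their values.

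S100a8, the calgranulin that pairs with S100a9, had levels of 3.99, 6.24, 2.69 and 4.17 on the oxaliplatin arrays 1 to 4, against 6.41, 5.31, 5.03 and 7.05 on the control arrays 1 to 4. Oxaliplatin replicate 2 lay among the control arrays, and the other 3 oxaliplatin arrays lay below every control array. The means were 4.27 ± 1.47 in oxaliplatin livers and 5.95 ± 0.94 in control livers (SD, n = 4 each), a difference of -1.68 ± 0.87 (SE). Its second probe gave -1.60, and its levels followed the first over the 8 arrays at a Pearson r of 0.997.

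S100a9 had levels of 5.32, 7.37, 3.80 and 5.58 on the oxaliplatin arrays, against 7.47, 6.59, 6.08 and 7.55 on the control arrays. The oxaliplatin arrays stood in the same order as for S100a8, and the groups overlapped only through replicate 2. The difference was -1.41 ± 0.81, and -1.31 at the second probe, which shares 51 bases with the first. The first probe lies on chromosome 3, like S100a8. Among the 6 arrays of the first run name, the differences were -2.52 for S100a8 and -2.23 for S100a9. Without oxaliplatin replicate 3, the lowest array, they were -1.15 for S100a8 and -0.83 for S100a9.

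**Figure D1:**
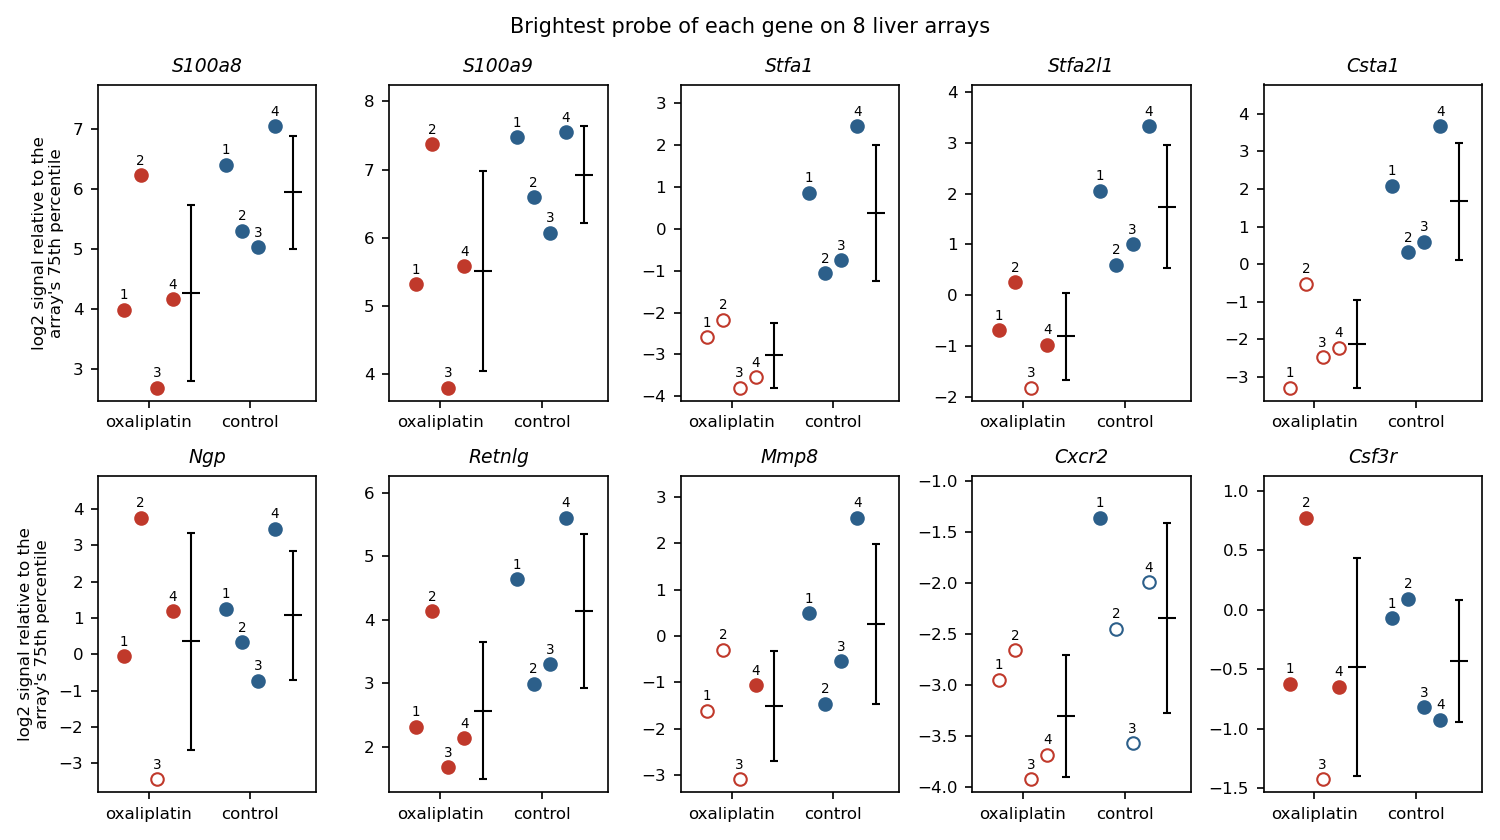
Log2 signal of the brightest probe of each of the 10 genes, with the 4 oxaliplatin arrays (red, left) and the 4 control arrays (blue, right) numbered by replicate, open where the probe was not well above background. Bars give the mean and SD of each group; the measured values of Stfa1, Stfa2l1 and Csta1 lie lower on every oxaliplatin array than on every control array, those of Stfa1 and Csta1 below background, while for the other 7 genes the groups overlap.

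The stefins, inhibitors of cathepsins, had the largest measured differences of the 9 genes, which for Stfa1 and Csta1 rest on oxaliplatin values below background. Stfa1 was not well above background on any oxaliplatin array, with measured levels of -2.59, -2.17, -3.80 and -3.55, and was well above it on all 4 control arrays, with 0.87, -1.06, -0.75 and 2.45. Every measured oxaliplatin value lay below every control value, but the lowest signal well above background on oxaliplatin replicate 2 was -0.45, above control replicates 2 and 3, so whether that array was lower than these 2 is not determined. The measured means were -3.03 ± 0.78 in oxaliplatin livers and 0.38 ± 1.62 in control livers. Since the oxaliplatin values are below background, Stfa1 is best given as at least about 2.95-fold lower in oxaliplatin livers. This bound is set against the lowest signal well above background on each oxaliplatin array, and is about 1.82-fold without control replicate 4. A probe can go unflagged above that lowest signal, as Mmp8 did at -0.30 on oxaliplatin replicate 2. The bounds here and below are therefore approximate. Bounds without single arrays were added after seeing the data. The second Stfa1 probe shares no run over 7 bases with the first but matches the brightest Csta1 probe at 40 of 42 overlapping bases and a Cstdc5 probe at 36 of 37, so it is equally uncertain as to gene. It was also flagged on 0 of 4 oxaliplatin arrays and 4 of 4 control arrays, and was at least 2.65-fold lower, or 1.57-fold without control replicate 4. Its control replicates 2 and 3, at -1.16 and -1.30, again lay below the lowest signal well above background on oxaliplatin replicate 2.

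Csta1 was likewise flagged on 0 of 4 oxaliplatin arrays, with measured levels of -3.29, -0.52, -2.48 and -2.22, and on 4 of 4 control arrays, with 2.09, 0.32, 0.59 and 3.66. The groups did not overlap, and oxaliplatin replicate 2 came nearest to the controls. The means were -2.13 ± 1.16 in oxaliplatin livers and 1.67 ± 1.54 in control livers, which puts this probe at least 7.20-fold lower, or 4.54-fold without control replicate 4. This is the probe that shares 45 bases with Cstdc5. The other 2 Csta1 probes, which share at most 8 bases with it, were well above background on 1 and 0 of the 8 arrays and had measured differences of 1.26 and 1.18 in the opposite direction. No level of Csta1 apart from its relatives can be given from these probes.

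Stfa2l1, whose probes are likewise uncertain as to gene, could be measured in both groups. Its brightest probe was flagged on 3 of 4 oxaliplatin arrays, with levels of -0.69, 0.26, -1.82 and -0.97, and on 4 of 4 control arrays, with 2.06, 0.60, 1.0 and 3.32. The lowest control array exceeded the highest oxaliplatin array by a small margin. The means were -0.81 ± 0.86 in oxaliplatin livers and 1.74 ± 1.22 in control livers, a difference of -2.55 ± 0.75. The second probe, flagged on 1 oxaliplatin and 4 control arrays, gave -2.99. Fitted differences of the 3 stefins depended on the treatment of dim signals: with a normexp background correction they were -1.05 for Stfa1, -1.62 for Csta1 and -1.37 for Stfa2l1, against -3.40, -3.79 and -2.55 from the processed signal.

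Ngp, the neutrophilic granule protein of secondary granules, had the widest spread of the 10 genes over the oxaliplatin arrays. Its levels were -0.05, 3.75, -3.44 and 1.18 on the oxaliplatin arrays, against 1.25, 0.33, -0.72 and 3.45 on the control arrays. The highest and the lowest of the 8 arrays were both oxaliplatin arrays, replicates 2 and 3. The means were 0.36 ± 2.99 in oxaliplatin livers and 1.08 ± 1.77 in control livers, and the difference of -0.72 ± 1.74 was smaller than its error. It was -2.21 among the 6 arrays of the first run name, 0.55 without oxaliplatin replicate 3, 0.07 without control replicate 4 and -0.17 with normexp.

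Retnlg, a resistin-like secreted protein of mouse neutrophils, was well above background on all 8 arrays. It had levels of 2.32, 4.14, 1.68 and 2.14 on the oxaliplatin arrays, against 4.64, 3.0, 3.30 and 5.61 on the control arrays. As for S100a8, 3 oxaliplatin arrays lay below every control array and replicate 2 lay among them. The difference was -1.57 ± 0.81 at the brightest probe and -1.21 at the second, whose levels followed the first at r = 0.990.

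Mmp8, the neutrophil collagenase, was flagged on 1 of 4 oxaliplatin arrays, with levels of -1.61, -0.30, -3.09 and -1.06, and on 4 of 4 control arrays, with 0.49, -1.47, -0.54 and 2.55. The groups overlapped. Its measured difference was -1.78 ± 1.05, -1.01 without control replicate 4 and -0.64 with normexp. The second Mmp8 probe was flagged on 0 of 4 oxaliplatin and 2 of 4 control arrays.

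Both receptors were dim. Csf3r, the receptor for granulocyte colony-stimulating factor, had 1 probe, with levels of -0.62, 0.77, -1.43 and -0.65 on the oxaliplatin arrays and -0.07, 0.09, -0.82 and -0.93 on the control arrays. The groups overlapped throughout, and the difference was -0.05 ± 0.53. Its sign turned under several alternatives, with a range of -0.68 to 0.27 over the 20 that gave a value. Cxcr2, the chemokine receptor that draws neutrophils out of the marrow, was flagged on 0 of 4 oxaliplatin and 1 of 4 control arrays at its brighter probe, and on 1 of 4 oxaliplatin and 0 of 4 control arrays at the other. No difference is given for Cxcr2.

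**Figure D2:**
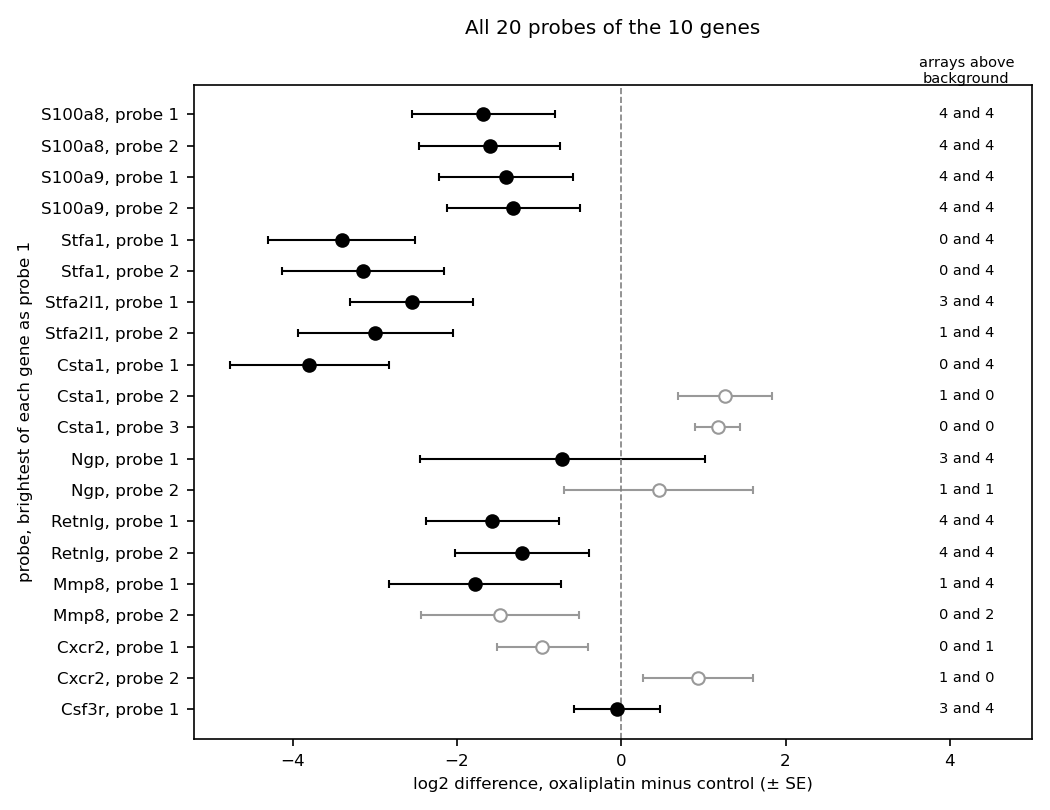
Log2 difference, oxaliplatin minus control, of all 20 probes of the 10 genes, with SE bars from the 4 arrays of each group; the numbers at the right count the oxaliplatin and the control arrays on which the probe was well above background. Filled points are probes flagged on at least 4 arrays: these all lie below 0, while the 4 probes above 0, of Csta1, Ngp and Cxcr2, are open and flagged on at most 2 arrays.

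Counted over the 9 measured genes, 3 were lower at an adjusted p under 0.05 in the fit over all genes (Stfa1, Stfa2l1 and Csta1), where 11.6% of the 13913 genes tested were lower. None of the 9 was higher, where 6.99% of all genes were. The count of 3 became 4 without oxaliplatin replicate 2, which added S100a8, and 0 without oxaliplatin replicate 3 or among the 6 arrays of the first run name. It was 7 with median centring, 2 with normexp (Stfa2l1 and Csta1), 1 with run name as a covariate (Stfa1) and 0 of the 3 genes above background on all 8 arrays. It was 1 without oxaliplatin replicate 4 (Csta1) and 2 (Stfa1 and Csta1) without control replicate 1, control replicate 3 or oxaliplatin replicate 1. The measured values of the same 3 genes did not overlap between the groups, which for Stfa1 rests on values below background, against 18.4% of all genes. The median difference was -1.68 over the 9 genes and -0.09 over all genes tested. Because the genes were chosen from this contrast, and a gene flagged only in control livers had to differ to pass the filter, these counts are given as a description and nothing is read from them.

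The 9 genes also shared a pattern among arrays of the same group, which the difference between groups does not carry. Control replicate 4 was the highest of the 8 arrays for 7 of the 9 genes, and oxaliplatin replicate 2 was the highest for the other 2, Ngp and Csf3r. Oxaliplatin replicate 3 was the lowest for 8 of the 9, with Csta1, lowest on oxaliplatin replicate 1, as the exception. After the mean of each group was taken away, the correlation between 2 genes over the 8 arrays had a median of 0.85 over the 36 pairs and was above 0 in all 36. The highest was 0.98 between S100a8 and S100a9, and the lowest was 0.12 between Stfa1 and Csf3r. These values are a description over 8 arrays that share each array's RNA and scaling. The same median was not computed for pairs of other genes, so nothing is read from its size. The brightest probes of the 3 stefins share runs of bases, so the pairs among them are not separate measurements. All these correlations use measured levels, which for Stfa1 and Csta1 lie below background on all oxaliplatin arrays, where their order is not determined.

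On oxaliplatin replicate 2 the S100 genes and the stefins ranked differently. Among the 8 arrays it ranked the third for S100a8, S100a9 and Retnlg, below control replicates 1 and 4, and the first for Ngp. For Stfa2l1 it ranked the fifth, below all 4 control arrays, and for Csta1 it also lay below all 4. For Stfa1 its place against control replicates 2 and 3 is not determined.

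**Figure D3:**
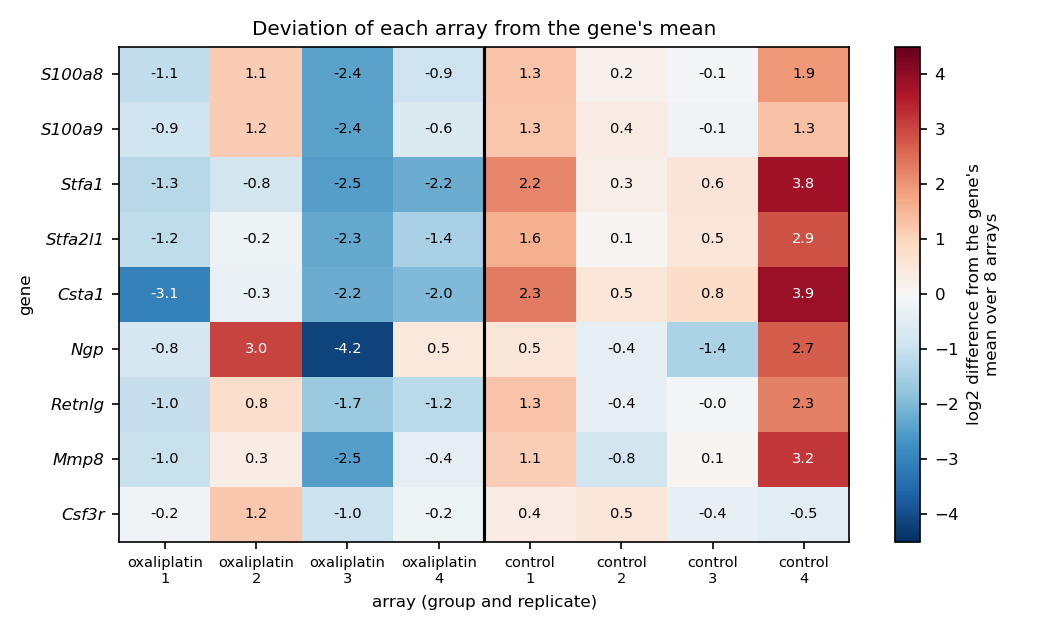
Log2 deviation of each of the 8 arrays, oxaliplatin left and control right, from the gene's mean over all 8, by measured level, for the 9 genes with a measured probe. Red is above and blue below the mean; oxaliplatin 3 is blue and control 1 is red in every row, and oxaliplatin 2 is blue for the 3 stefins and red for the other 6 genes.

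Genes whose levels over the 8 arrays were most like the mean of S100a8 and S100a9 were sought among 13894 other genes. The 8 nearest were Wfdc2, Tbc1d24, Clec4d, Eda, Ier5, Fetub, Abcc4 and Lncbate1, with Pearson r between 0.903 and 0.965. With the group means taken away, their r lay between 0.844 and 0.946. Clec4d, a C-type lectin of neutrophils and monocytes, was at r = 0.936 and had a difference of -0.92 ± 0.41, which did not pass the test (limma, adjusted p = 0.142). Of the 8, Abcc4, an exporter of organic anions, passed, at -0.99 with an adjusted p of 0.0452. That call was lost (adjusted p between 0.0819 and 0.113) when any array other than control replicate 2 or oxaliplatin replicate 2 was left out.

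The lists of other genes below were drawn up with earlier results of these arrays known. They were not chosen by the rule for the 10 genes, and their members were tested with limma in the fit over all 13913 genes, with adjustment over all of them.

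Of 11 other stefin and cystatin genes, 10 had a probe and 6 could be tested; 2 fell, 1 rose and 3 did not pass, with a median difference of -0.78. Cstdc4, a stefin A gene of the same cluster, had levels of -1.12, -0.23, -1.56 and -1.70 on the oxaliplatin arrays, against 1.89, 0.03, 0.74 and 3.30 on the control arrays. Its probe was flagged on 2 of 4 oxaliplatin and 4 of 4 control arrays. The groups did not overlap, and it fell by 2.64 ± 0.67 (limma, adjusted p = 0.0315). This brightest Cstdc4 probe shares 38 bases with the brightest Csta1 probe, so it is not a separate measurement. Leaving out control replicate 1 or 3 or oxaliplatin replicate 1, 3 or 4 ended that call, with adjusted p between 0.0553 and 0.0814. The other Cstdc4 probe, listed for that gene only, had a measured difference of -2.98. It was flagged on 0 of 4 oxaliplatin and 4 of 4 control arrays, and its measured values did not overlap between the groups. Control replicate 2, at -0.79, lay below the lowest signal well above background on oxaliplatin replicate 2, -0.45. Whether that oxaliplatin array was lower than control replicate 2 is therefore not determined. The longest run that this second Cstdc4 probe shared with a probe of the 10 genes was 21 bases.

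Stfa2, another stefin A gene, had levels of -0.23, 0.34, -0.85 and -0.40 on the oxaliplatin arrays, against 1.66, 1.18, 0.31 and 3.1 on the control arrays. Only oxaliplatin replicate 2 reached into the control range, by exceeding control replicate 3. The difference was -1.85 ± 0.54 (limma, adjusted p = 0.0475), at a probe flagged on all 8 arrays that shares no run over 8 bases with any probe of the 10 genes. Only probes were compared, not transcripts, and Stfa2 is also listed for the dimmer Stfa2l1 probe. Whether the Stfa2 signal is separate from those of the 10 genes was therefore not tested. The call was lost in 16 of 21 alternatives, among them normexp (-1.08). It ended when any array but control replicate 3 or 4 was left out, with adjusted p between 0.0632 and 0.117.

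Cst7, cystatin F of immune cells, was dim, flagged on 3 of 4 oxaliplatin and 2 of 4 control arrays. It rose by 0.92 ± 0.25 (limma, adjusted p = 0.0373), with mean levels of -0.96 ± 0.43 in oxaliplatin livers and -1.88 ± 0.34 in control livers. It lost that call on leaving out any array but oxaliplatin replicate 4 (adjusted p between 0.0564 and 0.0831), differed by 0.55 among the 6 arrays of the first run name, and by 0.23 with normexp, and the call was lost in 15 of 20 alternatives. The ubiquitous inhibitors Cst3, at 0.17, and Cstb, at -0.36, did not pass. Cstdc5 did not pass at its brightest probe, at -1.19 ± 1.21, but its other probe, the one that matches Csta1 over 45 bases, was flagged on 0 of 4 oxaliplatin and 4 of 4 control arrays and was at least 3.19-fold lower, or 1.88-fold without control replicate 4. At that probe control replicates 2 and 3, at -1.26 and -0.75, lay below the lowest signal well above background on oxaliplatin replicate 2, -0.45. Whether that oxaliplatin array was lower than these 2 is not determined. Stfa3, Csta2 and Csta3 were too dim to test. The list of cysteine cathepsins, the proteases that stefins inhibit, also held Lgmn, which is not a cathepsin gene. Of the 11 genes of this list, all measured, 0 passed in limma (2 at an unadjusted p under 0.05), and their median difference was 0.00. Of these the brightest were Ctsl, at 0.23, and Ctsh, at 0.01.

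Among 11 genes of secondary and gelatinase granules, to which Ngp and Mmp8 belong by their protein's location, 6 were tested and 1 passed, Lcn2, which encodes lipocalin 2, a siderophore-binding protein of granules that hepatocytes also make. Lcn2 had levels of 8.26, 7.27, 4.11 and 4.13 on the oxaliplatin arrays, against 9.02, 9.35, 9.63 and 9.96 on the control arrays. All oxaliplatin arrays were lower, with replicates 3 and 4 far below replicates 1 and 2. It fell by 3.55 ± 0.92 (adjusted p = 0.0339), but leaving out any array other than oxaliplatin replicate 1 or 2 took the adjusted p to between 0.0542 and 0.083. Among the 6 arrays of the first run name it differed by -5.37. Its highest oxaliplatin array was replicate 1, whereas for S100a8 and S100a9 it was replicate 2.

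The other 5 tested genes of that list did not pass. Camp, the cathelicidin of secondary granules, differed by 1.03 ± 0.66, and Ltf, lactoferrin, by 0.70 ± 0.99, and both had their highest level on oxaliplatin replicate 2. Both were dim, with Camp flagged on 4 of 4 oxaliplatin and 2 of 4 control arrays, and Ltf on 2 and 3. Among the 6 arrays of the first run name their differences were 0.27 and 0.04. Chil3, a chitinase-like protein of myeloid cells, differed by -2.25 ± 1.18 and was highest on control replicate 4. The brightest of the list that did not pass were Cybb, at 0.28, and Chil3. Of 9 genes of precursors and primary granules, 3 could be tested and 0 passed, nor did any at an unadjusted p under 0.05 in limma: Prtn3 at -1.92 ± 1.07, Ctsg at -0.38 ± 0.73 and Cebpe at -0.06 ± 0.31. Prtn3, a protease of primary granules, passed in limma among the 6 arrays of the first run name, at -3.82. Ms4a3 and Fcnb were flagged on no array, and Elane, the elastase of primary granules, on 1 oxaliplatin array, as was Gfi1. Summed over their probes, Mpo had 2 oxaliplatin and 4 control flags, and Prss57 had 1 and 2. Of the untested secondary and gelatinase granule genes, Pglyrp1 had 0 oxaliplatin and 5 control flags, Mmp9 0 and 3, and Mmp25 1 and 0. Cd177 and Olfm4 were flagged on no array.

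Of 23 genes of the neutrophil surface and its effector functions, 19 were tested, 1 rose, 0 fell and 18 did not pass, with a median difference of -0.21. Wfdc21 was the one that rose, by 0.39 ± 0.10 (adjusted p = 0.0292), and its sign turned under median centring of the arrays. Its mean levels were 9.90 in oxaliplatin and 9.51 in control livers, far above those of S100a8 and S100a9. The cells that this signal came from were not tested. It lost its call without control replicate 2 or 3 or oxaliplatin replicate 1, 2 or 4 (adjusted p between 0.0515 and 0.0763). Ly6g, the surface antigen commonly used to gate mouse neutrophils, had levels of 4.79, 5.57, 3.72 and 4.47 on the oxaliplatin arrays, against 5.75, 5.75, 5.66 and 4.75 on the control arrays, and did not pass (-0.84 ± 0.39, adjusted p = 0.161). Its lowest control array was replicate 4, the array on which S100a8 and the stefins were highest. Fcgr4, an Fc receptor, differed by -0.21 ± 0.73 and did not pass. Of the untested genes of this list, Il1r2 had 0 oxaliplatin and 6 control flags summed over its probes. Cxcr1 had 0 and 2, Clec4e had 0 and 1, and Trem1 was flagged on no array.

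**Figure D4:**
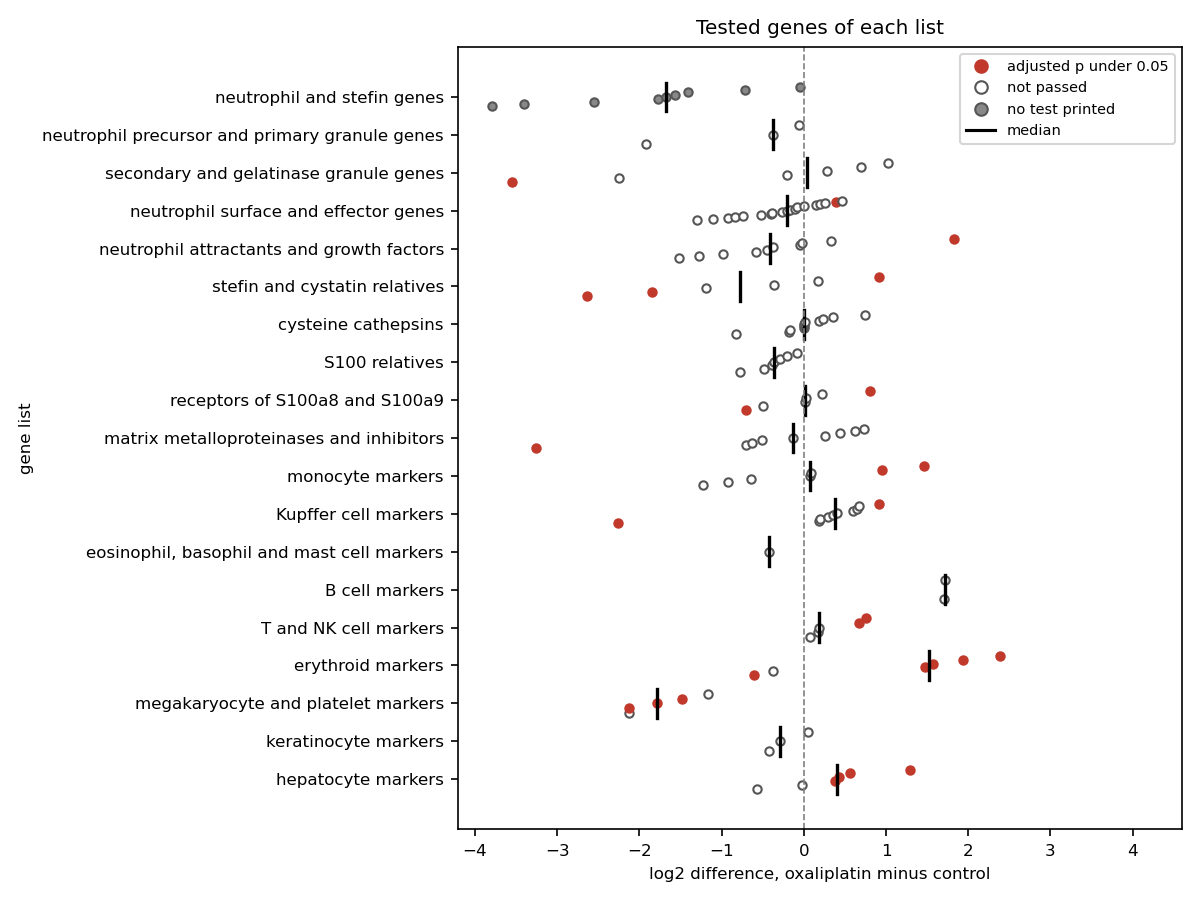
Log2 differences, oxaliplatin minus control, of the tested genes of each list, with the 10 genes' own list at the top in grey and without a test. Red points passed at an adjusted p under 0.05 in the fit over all genes, and black lines are list medians. These are -1.68 for the neutrophil and stefin genes, and -0.38, 0.04 and -0.21 for the 3 lists of other neutrophil genes. Since the 10 genes were selected on this same comparison, nothing is read from the gap between their median and the others.

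Of 18 attractants and growth factors of neutrophils, 10 were tested and 1 passed. Il1b, an inflammatory cytokine that recruits neutrophils, had levels of 2.37, 4.11, 2.36 and 3.55 on the oxaliplatin arrays, against 1.15, 1.51, 1.54 and 0.88 on the control arrays. The groups did not overlap, and it rose by 1.83 ± 0.40 (adjusted p = 0.0203), a call that was lost without oxaliplatin replicate 4 (adjusted p = 0.0547) and among the 6 arrays of the first run name (1.69). The chemokine Cxcl1 differed by -1.52 ± 1.22 (-3.33 among the 6 arrays of the first run name) and Cxcl12, which holds neutrophils in the marrow, by 0.33 ± 0.18, and neither passed. Cxcl3, Cxcl5, Cxcl15, Csf2, Csf3, Il17a and Sele were flagged on no array.

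Of 14 other S100 genes, 7 were tested and 0 passed in limma (3 at an unadjusted p under 0.05), with a median of -0.36. The brightest, S100a10, which binds annexin A2, differed by -0.09, with a range of -0.71 to 0.10 over 21 alternatives, and S100a16 differed by -0.36. Of 6 genes of the receptors of S100a8 and S100a9 and their signalling, all tested, 1 rose and 1 fell. Tlr4, the receptor for calprotectin and bacterial lipopolysaccharide, rose by 0.81 ± 0.21 (adjusted p = 0.034), and without any single array but control replicate 4 or oxaliplatin replicate 4 it no longer passed (adjusted p 0.0539 to 0.088). Ager, the receptor for advanced glycation end products, was flagged on 2 of 4 oxaliplatin and 4 of 4 control arrays. It fell by 0.71 ± 0.20 (limma, adjusted p = 0.0454), and passed after a left-out array only without control replicate 3 (adjusted p 0.0519 to 0.1 without each of the others). With normexp neither passed, at 0.31 for Tlr4 and -0.26 for Ager. The other 4 did not pass, among them Bsg, at -0.50 (adjusted p = 0.0642), and Myd88, an adaptor of Toll-like receptors, at 0.02. None of the 3 resistin relatives of Retnlg, Retn, Retnla and Retnlb, could be tested.

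Among 14 other matrix metalloproteinases and their inhibitors, the relatives of Mmp8, 9 were tested and 1 fell. Mmp7, matrilysin, an enzyme of epithelia, had levels of 0.50, -2.73, -3.62 and -0.98 on the oxaliplatin arrays, against 1.76, 0.17, 1.35 and 2.91 on the control arrays. The groups overlapped through oxaliplatin replicate 1, and the probe was flagged on 2 of 4 oxaliplatin and 4 of 4 control arrays. The difference was -3.25 ± 0.92 (limma, adjusted p = 0.0423), which held without control replicate 2 or oxaliplatin replicate 1 and not without any of the others (adjusted p 0.0718 to 0.0999), and it was -1.37 with normexp. Mmp14, at -0.70, and Mmp19, at -0.13, were the brightest that did not pass.

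Markers of other cells that a liver sample can hold were read in the same fit, in which 6.99% of all genes were higher and 11.6% lower. Of 6 erythroid markers 4 rose and 1 fell, and the mean log2 level over all 6 spanned 4.79 to 5.43 on the oxaliplatin arrays and 3.63 to 4.80 on the control arrays. Of 5 tested megakaryocyte and platelet markers 3 fell and 0 rose, and their mean level spanned 0.67 to 0.97 on the oxaliplatin arrays and 1.75 to 3.37 on the control arrays. Of 7 tested monocyte markers 2 rose, of 10 Kupffer cell markers 1 rose and 1 fell, and of 5 tested T and NK cell markers 2 rose. The 2 tested B cell markers, Cd79b at 1.72 ± 0.54 and Ms4a1 at 1.71 ± 0.59, were measured higher without overlap of the groups. They did not pass, though both had an unadjusted p under 0.05 in limma. The 1 tested eosinophil, basophil and mast cell marker and the 3 keratinocyte markers did not pass either (0 at that level). Cd79a, Pax5, Cd4, Ncr1, Vcan, Epx, Mcpt8, Cpa3, Fcer1a, Ms4a2 and Ivl were flagged on no array. Of 6 hepatocyte markers 4 rose, and their mean level spanned 9.81 to 9.98 on the oxaliplatin arrays and 9.44 to 9.59 on the control arrays. Of the 18 marker genes that passed in these lists, 7 passed without each array in turn: Csf1r, Cd3e, Cd3d, Alas2, Klf1, Itgb3 and Alb. Of the 18, 2 passed under every alternative, Alas2 and Itgb3. The part of these shifts in the neutrophil and stefin values was not tested.

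**Figure D5:**
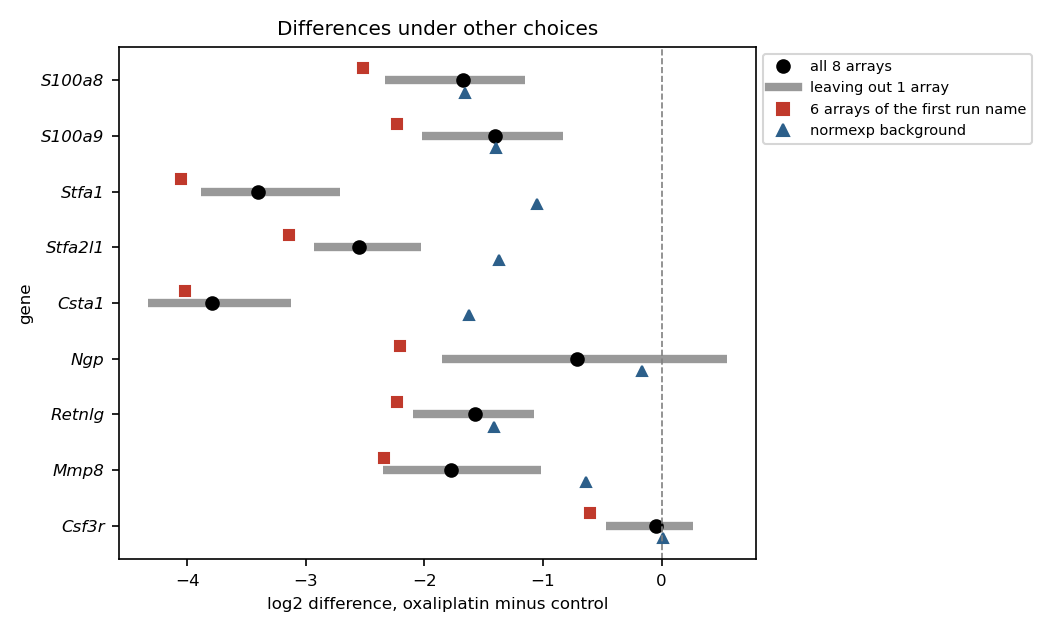
Log2 difference, oxaliplatin minus control, of the 9 measured genes from all 8 arrays (black), over the 8 ways to leave out 1 array (grey bar), among the 6 arrays of the first run name (red squares) and with normexp background correction (blue triangles). The 3 stefins, S100a8, S100a9, Retnlg and Mmp8 stay below 0 throughout, while the bars of Ngp and Csf3r cross 0. In log2 units, Stfa1 and Csta1 shrink most under normexp, and Stfa2l1, Mmp8 and Ngp also shrink.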

How the data were processed

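Total RNA of 8 livers was labelled with Cy3 and hybridised to 1-colour Agilent arrays, 1 per mouse, which the design text calls biological replicates. Per the file headers, the deposited processed signal is an intensity on a linear scale, background-subtracted on each array and not scaled across arrays. It was extracted with Feature Extraction 12.0.3.1 per the file headers, while the submitters' processing notes name 10.7 and limma. The deposited background flags are 0 or 1. The deposited series matrix holds log2 values of unstated normalization and served as an alternative. 

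Here log2 signals were centred on the 75th percentile of their array. A probe entered when flagged well above background on at least 4 arrays (54636 probes), and the brightest probe stood for each symbol. Names came from accessions (47985 of 48257 matched). Groups were compared with limma 3.58.1 in R 4.3.3, adjusted by Benjamini-Hochberg over 13913 genes at 0.05. Errors of the 10 genes' differences are from the spread of the 4 arrays per group, and those of other genes are from limma. Beyond the 10 genes, the text names each list's called genes of smallest adjusted p (for markers of other cells, counts and the genes that passed without each array in turn), the 2 brightest not passing and the 8 nearest in pattern; Chil3, Camp, Ltf, Ctsg, Clec4d, the dim genes and those flagged on no array were named with their values in view. The 10 genes and the lists were chosen with earlier results of these data known. A listed marker gene is not reported here. The fit was tested on simulated data. Number of arrays limits the precision, and no spot was saturated. Tables were made with pandas 2.3.3 and figures with matplotlib 3.10.9.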

Additional observations from a re-analysis of the deposited data

Results flagged for a closer look

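Within a group of 4 arrays, 1 array lay far from the other 3 in 11 of the 156 groups examined (a gap over 0.829 of the group's range), and chance gives about 1 in 20. None of these was a brightest probe of the 10 neutrophil and stefin genes. On the oxaliplatin arrays, Ier5 was at 4.93 on replicate 2 (others 3.75 to 3.80), Cd79b at 3.45 on replicate 2, Klf1 at 3.14 on replicate 3, Alb at 11.3 on replicate 4 and Ttr at 6.51 on replicate 1. On the control arrays, Ly6g was at 4.75 (others 5.66 to 5.75), Tlr4 at -0.47, Ms4a1 at -3.32 and Mmp14 at 7.32 on replicate 4, while Prtn3 was at 4.66 (others 6.29 to 6.40) and Klf1 at 3.74 on replicate 2.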

How the results depend on the processing

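The median difference over the measured members, -1.68, stayed between -2.34 and -1.20 over all 21 alternatives, within the spread between arrays. Over all genes, 973 were higher and 1617 lower. Genes higher numbered 230 with median centring, 2782 with no filter on dim probes, 451 with run name as covariate, 255 among the first run name, 266 with the replicate block and 457 to 972 on leaving out 1 array. Genes lower numbered 2588 with normexp, 935 with the percentile over detected probes, 9687 with median centring, 469 with run name as covariate, 260 among the first run name, 263 with the replicate block and 558 to 1509 on leaving out 1 array. Same-numbered arrays did not deviate together (correlations -0.32 to -0.08). The labels name no pairing of the mice, and these correlations cannot exclude one. Under the block 0 of the 9 members were called. Median centring over all probes, most of them below background, moved the median of all genes to -0.71 and turned Wfdc21 to -0.24, Alb to -0.0705, Cyp2e1 to -0.20, Serpina1a to -0.25, Cst3 to -0.46, Ctsl to -0.40, Ctsh to -0.62 and Nkg7 to -0.55. Centring over probes that passed the filter was added after seeing the data; it gave 1125 higher and 1232 lower, and with quantile normalization the split was 1123 to 1123, with the matrix 1076 to 1105. Dim signal limits Stfa1, Csta1, Mmp8, Mmp7, Ngp and Cxcr2, and among other genes it also limits Cst7, Ager, Cstdc4, Camp and Ltf.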
